A study of Mus musculus with 16 samples.

Results

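Notch receptors, their ligands, the DNA-binding mediator and 2 classical target genes were followed in luminal cells of the mouse mammary gland, in normal tissue and in glands carrying the PyMT oncogene, with and without a floxed p38α allele. The members were every probe set annotated to exactly 1 of the 10 symbols Notch1, Notch2, Notch3, Notch4, Jag1, Jag2, Dll1, Hes1, Hey1 and Rbpj. This gave 15 probe sets of 9 genes, out of 28898 single-symbol probe sets of 17097 genes among the 45141 on the array. Jag2 had no single-symbol probe set and is not described. Of the 15 probe sets, 13 passed a filter on low values (a mean over all arrays of at least 3.67 on the log2 scale, the 25th percentile of all probe sets) and were tested; the other 2 belong to Notch4.

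Each of the 4 groups held 4 arrays of RNA from luminal cells purified by flow sorting. All mice carried MMTV-Cre, which expresses the Cre recombinase from a viral promoter active in mammary epithelium. The p38a-lox PyMT group (p38a-lox, MMTV-Cre, MMTV-PyMT) and the PyMT group (MMTV-Cre, MMTV-PyMT) came from mice aged 6 weeks. The p38a-lox group (p38a-lox, MMTV-Cre) and the MMTV-Cre group, which carried MMTV-Cre alone, came from mice aged 9 weeks. MMTV-PyMT drives the polyoma middle T antigen in mammary epithelium and leads to mammary tumours. PyMT and age therefore cannot be told apart in any comparison below. Both Cre and PyMT depend on the MMTV promoter, which need not have been active in every sorted cell. The share of unaltered cells is unknown here. The labels do not say that each array is a separate animal, so the p-values measure only how these samples vary, which may be technical variation.

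The Mapk14 probe set with the highest signal (Mapk14 encodes p38α) averaged 7.23 ± 0.10 in p38a-lox PyMT arrays and 7.20 ± 0.32 in PyMT arrays, and 7.31 ± 0.86 in p38a-lox arrays and 6.53 ± 0.88 in MMTV-Cre arrays (log2 signal, SD, n = 4 each). It was not lower in either group with the floxed allele. Where its probes lie relative to the floxed part is not known here, so the floxed state of the groups below rests on the labels. Values throughout are deposited log2 signals, in which 1 unit is a doubling, and signals of different probe sets are not comparable with each other. Array medians lay between 4.63 and 4.88, and pairwise correlations between 0.885 and 0.990. Luminal markers were high in every group: the mean of 6 of them (Krt8, Krt18, Krt19, Epcam, Cldn3 and Cldn7) lay between 11.05 and 11.91 in all 16 arrays. The 2 arrays with the lowest median correlation to the others were p38a-lox replicate 2 and PyMT replicate 4, and results that rest on them are given with and without them.

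Notch receptors are cell-surface proteins activated by Jagged and Delta ligands on neighbouring cells. Ligand binding leads to cleavage of the receptor by ADAM proteases and gamma-secretase, and the released intracellular domain enters the nucleus. There it binds Rbpj and turns this DNA-binding protein from a repressor into an activator of genes such as those of the Hes and Hey families, which encode transcriptional repressors. In the mammary gland, Notch signalling is known for its part in luminal fate decisions and in the luminal progenitor compartment.

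In the RefSeq annotation of the mouse assembly GRCm38.p6, the 2 Jagged and Delta genes measured lie at chr2:137081451-137116520 (Jag1) and chr17:15367354-15376932 (Dll1). The receptors lie at chr2:26457902-26503822 (Notch1), chr3:98013538-98150367 (Notch2), chr17:32120820-32166896 (Notch3) and chr17:34564286-34588543 (Notch4). Rbpj lies at chr5:53555779-53657445, Hes1 at chr16:30065357-30067796 and Hey1 at chr3:8663359-8667038. Promoter sequences from RefSeq (250 bases before to 50 after the annotated start, 5′ to 3′ on the gene's strand) are shown for the ligand gene with the clearest difference between groups, Jag1 (chr2:137116471-137116770, minus strand), and for the mediator, Rbpj (chr5:53590096-53590395, plus strand). The promoter of Hes7 (chr11:69120203-69120502, plus strand), a target gene outside the members that passed the test in PyMT against MMTV-Cre, is shown beside them. Capitals mark TGGGAA or its reverse complement TTCCCA, the core of the motif that Rbpj binds.
Jag1: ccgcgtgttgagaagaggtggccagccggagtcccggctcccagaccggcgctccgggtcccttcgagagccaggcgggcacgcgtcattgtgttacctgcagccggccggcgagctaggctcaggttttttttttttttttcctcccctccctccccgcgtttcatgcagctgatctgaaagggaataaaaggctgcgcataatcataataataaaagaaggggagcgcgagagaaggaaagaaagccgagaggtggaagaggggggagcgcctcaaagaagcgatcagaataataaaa
Rbpj: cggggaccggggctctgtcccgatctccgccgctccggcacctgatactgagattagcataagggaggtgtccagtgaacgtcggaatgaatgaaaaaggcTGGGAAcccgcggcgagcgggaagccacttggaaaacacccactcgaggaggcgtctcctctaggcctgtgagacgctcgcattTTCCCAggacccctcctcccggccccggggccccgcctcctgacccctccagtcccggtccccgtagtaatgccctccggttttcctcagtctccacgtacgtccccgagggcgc
Hes7: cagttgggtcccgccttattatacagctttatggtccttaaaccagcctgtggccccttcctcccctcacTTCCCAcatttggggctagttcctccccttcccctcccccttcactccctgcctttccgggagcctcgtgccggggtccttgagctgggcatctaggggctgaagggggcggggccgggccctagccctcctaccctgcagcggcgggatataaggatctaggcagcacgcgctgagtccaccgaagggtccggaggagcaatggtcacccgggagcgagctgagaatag
The motif occurred in 2 of the 10 promoters listed for 8 of the 10 symbols; both belong to Rbpj, and their windows overlap. The Jag1 window holds no copy, the Rbpj window shown holds 2 and the Hes7 window holds 1. Of all 32851 promoters of 300 bases, 25.6% hold the motif on either strand. Hes1 and Hey1 are named only. A match is a description of the letters and not a measured binding site.

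Hey1 and Jag1 were the members that differed most between arrays with and without PyMT, and they did so both with and without the floxed p38α allele. Hey1 was 3.29-fold higher in p38a-lox PyMT than in p38a-lox arrays and 3.49-fold higher in PyMT than in MMTV-Cre arrays. Jag1 was 2.17-fold and 2.07-fold higher in the same comparisons. Neither difference alone passed the threshold over all probe sets. Averaged over both p38α genotypes, with 8 arrays on each side, both genes passed it, while the receptors, Dll1, Hes1 and Rbpj did not. That averaged contrast was chosen after the data were seen, and 6% of all tested probe sets were called in it.

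**Figure D1:**
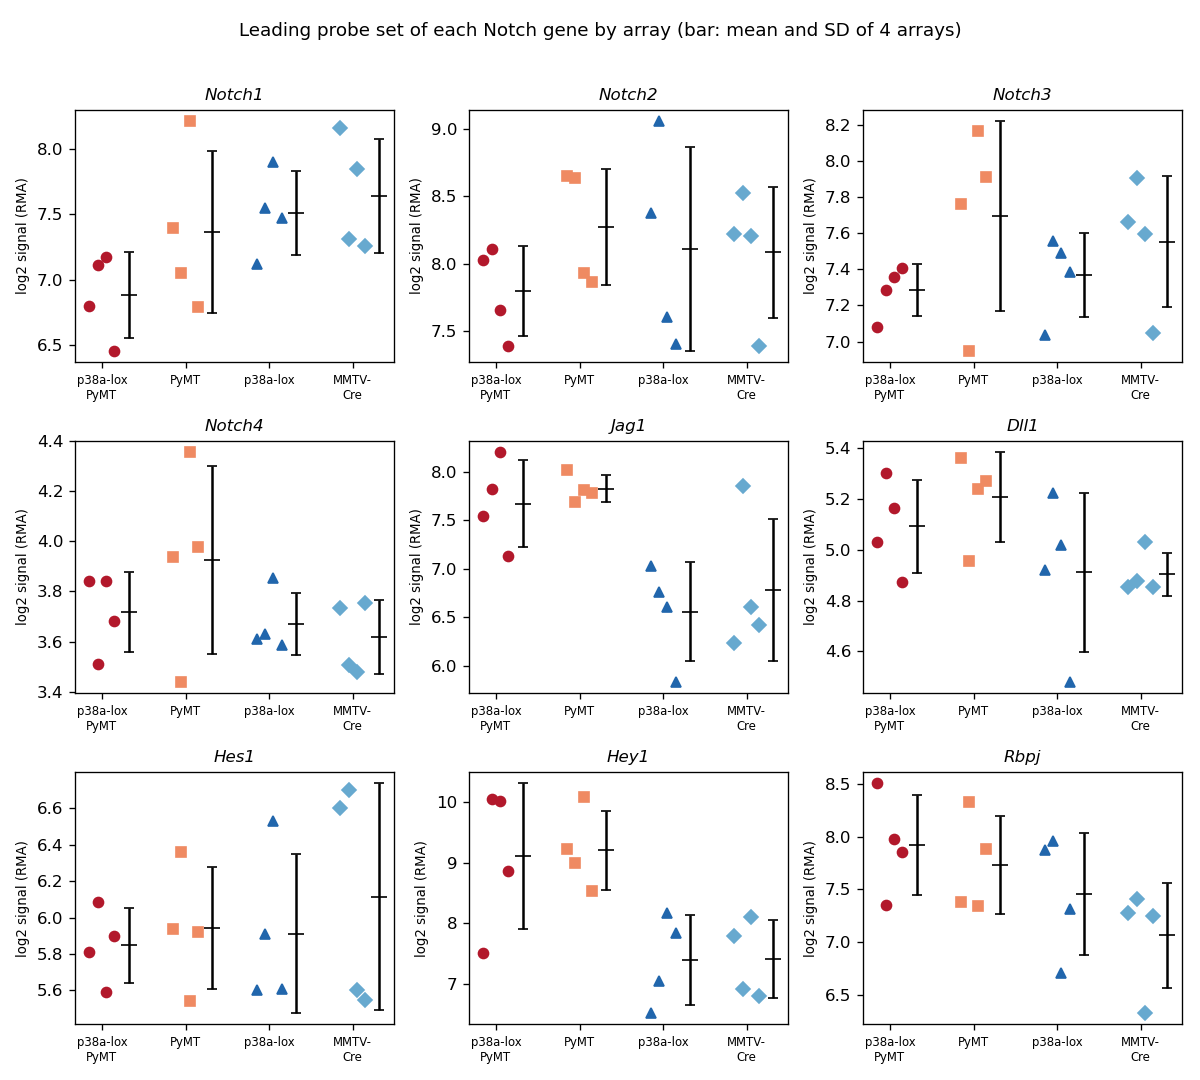
Log2 RMA signal (vertical axes, a separate scale for each gene) of the leading probe set of 9 Notch genes in the 4 arrays of each group; the bar gives the mean and SD. Hey1 and Jag1 sit higher in most arrays of the p38a-lox PyMT and PyMT groups than in the p38a-lox and MMTV-Cre groups, while the groups compared with each other overlap for the other 7 genes.

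These comparisons ask how luminal cells of the PyMT model differ from those of glands without the oncogene. Calls required an adjusted p below 0.05 (Benjamini-Hochberg over 22996 probe sets), from limma fitted to all 16 arrays. By this rule 0 of 13 member probe sets were called in p38a-lox PyMT against p38a-lox, where 0.613% of all probe sets were called. Likewise 0 of 13 were called in PyMT against MMTV-Cre, where 1.06% were. At an unadjusted p under 0.05, 3 of 13 were higher and 0 lower in each comparison, against 12.4% and 13.7% of all probe sets in either direction. In both cases they were Hey1 and the 2 probe sets of Jag1. The comparisons share no arrays with each other, but their p-values are not independent, because the fit estimates 1 spread from all 16 arrays.

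Jag1 encodes Jagged1, a membrane-bound ligand of Notch receptors. Its leading probe set, the one with the highest mean (1421105_PM_at), read 7.54, 7.82, 8.20 and 7.13 in p38a-lox PyMT arrays, against 7.03, 6.77, 6.61 and 5.84 in p38a-lox arrays. It read 8.02, 7.69, 7.81 and 7.78 in PyMT arrays, against 6.24, 7.85, 6.61 and 6.42 in MMTV-Cre arrays. With the floxed allele, every PyMT array lay above every array without PyMT, a separation in this direction that 4.54% of all tested probe sets showed. Without the floxed allele, 1 array, MMTV-Cre replicate 2, lay among the PyMT arrays, and the other 3 lay below all of them. The group means were 7.67 ± 0.45 in p38a-lox PyMT, 7.83 ± 0.14 in PyMT, 6.56 ± 0.51 in p38a-lox and 6.78 ± 0.73 in MMTV-Cre arrays (SD, n = 4 each). The order of the means was thus PyMT highest and p38a-lox lowest, but the arrays of the 2 groups with PyMT overlapped, as did those of the 2 groups without it.

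The log2 difference in Jag1 was 1.12 ± 0.33 for p38a-lox PyMT against p38a-lox (limma adjusted p = 0.154) and 1.05 ± 0.33 for PyMT against MMTV-Cre (limma adjusted p = 0.154; ± SE, n = 4 each). The second probe set (1421106_PM_at) gave differences of similar size, 0.89 ± 0.29 and 0.99 ± 0.29 (limma adjusted p = 0.186 and 0.114). Its values were 4.61, 5.15, 5.51 and 4.34 in p38a-lox PyMT arrays, against 4.35, 3.999, 3.77 and 3.93 in p38a-lox arrays. They were 5.58, 5.10, 5.01 and 4.77 in PyMT arrays, against 3.82, 4.93, 3.90 and 3.85 in MMTV-Cre arrays. The same MMTV-Cre array was high in both probe sets. Without it, the leading probe set differed by 1.41 between PyMT and MMTV-Cre, and both Jag1 probe sets were called in that comparison. The leading one was then also called in p38a-lox PyMT against p38a-lox (limma adjusted p = 0.0478). MMTV-Cre replicate 2 is in neither of those groups, so the difference of 1.12 did not change. Only the spread, which the fit estimates from all arrays together, and the adjustment over all probe sets did. That array is named here for its high signal. A larger difference from MMTV-Cre and a smaller spread without it were thus fixed beforehand, and neither call is separate support. Over 27 alternative fits, Jag1 was called in 2 in each comparison.

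Dll1 encodes a Delta-like ligand of the same receptors. Its single probe set (1419204_PM_at) read 5.03, 5.30, 5.16 and 4.87 in p38a-lox PyMT arrays, against 4.92, 5.23, 5.02 and 4.48 in p38a-lox arrays. It read 5.36, 4.95, 5.24 and 5.27 in PyMT arrays, against 4.85, 4.88, 5.03 and 4.85 in MMTV-Cre arrays. The groups overlapped in both comparisons. The log2 differences were 0.18 ± 0.16 and 0.30 ± 0.16 (± SE; limma adjusted p = 0.718 and 0.424), smaller than those of Jag1.

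Hey1, a target gene of Notch that encodes a transcriptional repressor of the Hes and Hey family, had the largest differences of the 13 tested member probe sets in both comparisons with PyMT. Its probe set (1415999_PM_at) read 7.501, 10.05, 10.01 and 8.87 in p38a-lox PyMT arrays, against 6.52, 7.04, 8.17 and 7.84 in p38a-lox arrays. It read 9.22, 8.99, 10.08 and 8.53 in PyMT arrays, against 7.79, 6.92, 8.10 and 6.80 in MMTV-Cre arrays. In PyMT against MMTV-Cre the arrays did not overlap, which 4.37% of all tested probe sets showed in this direction. With the floxed allele, p38a-lox PyMT replicate 1 lay within the range of the p38a-lox arrays, and the other 3 lay above it.

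The log2 difference in Hey1 was 1.72 ± 0.54 for p38a-lox PyMT against p38a-lox (limma adjusted p = 0.181) and 1.80 ± 0.54 for PyMT against MMTV-Cre (limma adjusted p = 0.132). Without p38a-lox PyMT replicate 1 the first of these was 2.25 and was called (limma adjusted p = 0.0377). That array is named for its low signal, so a larger difference without it was fixed beforehand. Over 27 alternative fits, Hey1 was called in 1 in each comparison. The group means were 9.11 ± 1.20 in p38a-lox PyMT, 9.20 ± 0.65 in PyMT, 7.39 ± 0.75 in p38a-lox and 7.40 ± 0.64 in MMTV-Cre arrays (SD, n = 4 each). The means of the 2 groups with PyMT differed by less than the spread of their arrays, as did those of the 2 groups without it.

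Hes1, the other target gene measured and also a repressor, did not share this pattern. Its probe set (1418102_PM_at) read 5.81, 6.09, 5.59 and 5.90 in p38a-lox PyMT arrays, against 5.60, 5.91, 6.53 and 5.61 in p38a-lox arrays. It read 5.94, 6.36, 5.54 and 5.92 in PyMT arrays, against 6.60, 6.70, 5.60 and 5.55 in MMTV-Cre arrays. The MMTV-Cre arrays fell into a higher pair, whose sample titles carry low numbers, and a lower pair with high numbers (a split described below), and the 4 groups overlapped. The log2 differences were -0.06 ± 0.29 and -0.17 ± 0.29 (± SE; limma adjusted p = 0.960 and 0.861).

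Among the receptors, Notch1 was the one with the largest difference with PyMT, and its probe sets did not agree. The leading probe set (1418634_PM_at) read 6.80, 7.11, 7.17 and 6.46 in p38a-lox PyMT arrays, against 7.12, 7.55, 7.89 and 7.47 in p38a-lox arrays. It read 7.40, 7.05, 8.21 and 6.79 in PyMT arrays, against 8.16, 7.31, 7.84 and 7.26 in MMTV-Cre arrays. The groups overlapped in both comparisons, with log2 differences of -0.62 ± 0.29 and -0.28 ± 0.29 (± SE; limma adjusted p = 0.410 and 0.753). For the second probe set (1418633_PM_at) they were -0.17 ± 0.22 and 0.38 ± 0.22, so that in PyMT against MMTV-Cre the signs were opposite.

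Notch2 (1451889_PM_at) differed by -0.32 ± 0.35 in p38a-lox PyMT against p38a-lox and by 0.19 ± 0.35 in PyMT against MMTV-Cre. Notch3, the receptor known in vessels for its role in mural cells, differed by -0.08 ± 0.24 and 0.14 ± 0.24 in its leading probe set (1421965_PM_s_at). Its second probe set (1421964_PM_at) gave 0.20 ± 0.24 and 0.31 ± 0.24, so that in p38a-lox PyMT against p38a-lox the signs were opposite. Notch4, best known from endothelium, was near the filter: its 1 tested probe set (1456263_PM_at) lay between 3.44 and 4.35 in the 16 arrays and differed by 0.05 ± 0.17 and 0.31 ± 0.17. The other 2 Notch4 probe sets had group means of 3.38 and 3.11 in p38a-lox PyMT, 3.84 and 3.11 in PyMT, 3.39 and 2.99 in p38a-lox, and 3.44 and 3.01 in MMTV-Cre arrays. No difference in Notch2, Notch3 or Notch4 was called in either comparison.

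Rbpj, through which all 4 receptors act on their targets, also had probe sets that disagreed. The leading one (1418114_PM_at) read 8.50, 7.35, 7.98 and 7.86 in p38a-lox PyMT arrays, against 7.87, 7.96, 6.70 and 7.31 in p38a-lox arrays. It read 7.38, 8.33, 7.34 and 7.88 in PyMT arrays, against 7.28, 7.41, 6.33 and 7.25 in MMTV-Cre arrays. The groups overlapped in both comparisons. The log2 differences were 0.46 ± 0.33 and 0.66 ± 0.33 (± SE; limma adjusted p = 0.650 and 0.406). For the second probe set (1448957_PM_at) they were -0.28 ± 0.49 and -0.31 ± 0.49, opposite in sign, so no direction is given for the gene.

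**Figure D2:**
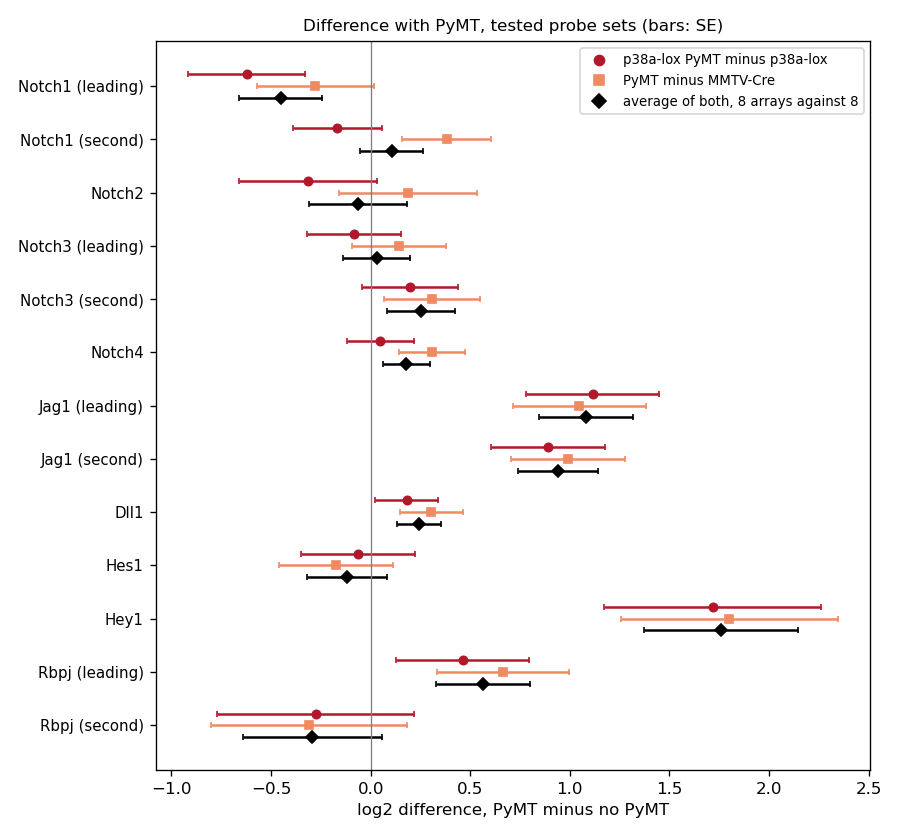
Log2 difference with PyMT (horizontal axis) for the 13 tested member probe sets, with and without the floxed p38α allele and averaged over both; bars are SE. Hey1 and both Jag1 probe sets lie between 0.89 and 1.80. The probe sets of Notch1, of Notch3 and of Rbpj fall on different sides of 0 in at least 1 of the estimates.

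When the effect of PyMT was averaged over both p38α genotypes in the same limma fit, a contrast chosen after the data were seen, 6% of all probe sets were called, and 3.54% of all were called higher. Among the 13 member probe sets, 3 were called, all higher. Hey1 averaged 9.16 ± 0.90 with PyMT and 7.40 ± 0.65 without (SD, n = 8 each), a log2 difference of 1.76 ± 0.38 (limma adjusted p = 0.0161), and 7 of 8 arrays with PyMT lay above the highest array without it. Jag1 averaged 7.75 ± 0.32 with PyMT and 6.67 ± 0.60 without, a log2 difference of 1.08 ± 0.24 (limma adjusted p = 0.0158). For the second probe set of Jag1 the difference was 0.94 ± 0.20 (limma adjusted p = 0.0151).

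All 3 probe sets were called in each of the 16 fits that left out 1 array, with differences of 1.60 to 2.03 for Hey1 and 0.96 to 1.26 for the leading probe set of Jag1. Without p38a-lox replicate 2 and PyMT replicate 4 together, the differences were 1.81 for Hey1 and 1.12 for Jag1 (limma adjusted p = 0.0313 and 0.0338). The other members were not called: the averages were 0.56 ± 0.24 for the leading probe set of Rbpj, -0.45 ± 0.21 for that of Notch1 and 0.24 ± 0.11 for Dll1 (limma adjusted p = 0.188, 0.238 and 0.235). The sample titles carry numbers that separate 9 arrays with low from 7 with high numbers; what the numbers stand for is not known here. Within the low and the high numbers, Hey1 differed by 1.99 and 1.44 in p38a-lox PyMT against p38a-lox and by 1.56 and 2.63 in PyMT against MMTV-Cre. Jag1 differed by 0.78 and 1.45, and by 0.79 and 1.30. Only 1 PyMT array has a high number.

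The mean of the basal and myoepithelial markers was higher with PyMT, as Hey1 and Jag1 were, but not every probe set of the list was. Of its 16 tested probe sets, 12 were higher and 4 lower in p38a-lox PyMT against p38a-lox (median difference 0.61). In PyMT against MMTV-Cre 11 were higher and 5 lower (median difference 0.57). The mean log2 signal of 8 of 9 listed basal markers ranged from 7.33 to 8.14 in p38a-lox PyMT arrays, against 5.37 to 7.23 in p38a-lox arrays. It ranged from 7.12 to 8.00 in PyMT arrays, against 5.76 to 7.57 in MMTV-Cre arrays. Of the list's 16 tested probe sets, 0 were called in p38a-lox PyMT against p38a-lox, and 1 was called in PyMT against MMTV-Cre: a probe set of Trp63, the p63 transcription factor of basal cells, with a log2 difference of 2.205 ± 0.39 (limma adjusted p = 0.0167). The keratins Krt14 and Krt5 differed by 2.50 ± 0.57 and 3.01 ± 0.72 in p38a-lox PyMT against p38a-lox (limma adjusted p = 0.0629 and 0.0726). The genes named here lay well above the list medians. Over the list, estimates ran from -0.67 to 3.01 in p38a-lox PyMT against p38a-lox and from -0.39 to 2.54 in PyMT against MMTV-Cre. In these sorted samples, more cells of a type and more RNA per cell cannot be told apart.

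The part of basal signal in the Hey1 and Jag1 differences was not tested. Within p38a-lox PyMT, Jag1 followed the basal mean in order: arrays with basal means of 8.14, 8.08, 7.57 and 7.33 had Jag1 signals of 8.20, 7.82, 7.54 and 7.13. Within PyMT it did too, with 8.02, 7.81, 7.78 and 7.69 at basal means of 8.00, 7.96, 7.48 and 7.12. In p38a-lox arrays the order was the reverse, with Jag1 at 7.03, 6.77, 6.61 and 5.84 where the basal mean was 5.37, 6.01, 6.93 and 7.23. Hey1 was 6.52 and 7.04 in the 2 p38a-lox arrays of low basal mean and 8.17 and 7.84 in the 2 of high basal mean. In p38a-lox PyMT arrays Hey1 read 10.01, 10.05, 7.501 and 8.87 at basal means of 8.14, 8.08, 7.57 and 7.33. In PyMT arrays Hey1 read 9.22, 10.08, 8.53 and 8.99 at basal means of 8.00, 7.96, 7.48 and 7.12. MMTV-Cre arrays showed no common order: at basal means of 7.57, 6.65, 6.03 and 5.76, Jag1 read 6.42, 6.24, 7.85 and 6.61 and Hey1 read 6.80, 7.79, 6.92 and 8.10.

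MMTV-Cre replicate 2, which had the highest Jag1 signal of the arrays without PyMT, had the highest mean of 5 hormone-sensing luminal markers among all 16 arrays, 8.76. The p38a-lox PyMT array with the lowest Hey1 signal, replicate 1, had the highest mean of that list in the groups with PyMT, 7.70. The mean of 7 luminal progenitor markers was 7.97 ± 0.14 in p38a-lox PyMT and 8.22 ± 0.40 in PyMT arrays. It was 8.34 ± 0.30 in p38a-lox and 8.22 ± 0.38 in MMTV-Cre arrays (SD). Of their 11 tested probe sets, 2 were called in PyMT against MMTV-Cre, both lower, while 6 estimates were positive and 5 negative. In p38a-lox PyMT against p38a-lox 0 were called. The part of luminal progenitors was not tested. The mean of 8 immune cell markers ranged from 4.62 to 4.83 in p38a-lox PyMT arrays, against 4.13 to 4.75 in p38a-lox arrays, and from 4.64 to 4.77 in PyMT arrays, against 4.26 to 4.69 in MMTV-Cre arrays. Of the 5 that were tested, 1 was called in p38a-lox PyMT against p38a-lox, the macrophage marker Cd68 (2.74 ± 0.56, limma adjusted p = 0.0404), and 0 in PyMT against MMTV-Cre. Ptprc, which encodes the pan-leukocyte marker CD45, lay between 2.71 and 3.14 in all arrays, below the filter on low values; the part of immune cells was not tested. Endothelial markers, listed because Notch4 and Jag1 are also expressed in vessels, had means between 4.57 and 4.95 in all arrays. The mean of 8 of 9 listed pericyte and fibroblast markers varied more. It ranged from 4.50 to 5.76 in p38a-lox PyMT and from 4.67 to 5.66 in PyMT arrays. It ranged from 4.62 to 4.91 in p38a-lox and from 4.96 to 5.61 in MMTV-Cre arrays. The part of such cells was not tested. Immediate early genes, which respond to cell isolation, averaged 9.42 ± 0.37 in p38a-lox PyMT and 9.65 ± 0.28 in PyMT arrays, against 8.90 ± 0.45 in p38a-lox and 8.52 ± 0.52 in MMTV-Cre arrays. Of their 9 tested probe sets, 3 were called in PyMT against MMTV-Cre, all higher, where 1.06% of all probe sets were called (median difference 1.33). In p38a-lox PyMT against p38a-lox 1 was called, also higher, where 0.613% were (median difference 0.26). In each comparison 6 estimates were positive and 3 negative. The part of immediate early genes was not tested either.

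**Figure D3:**
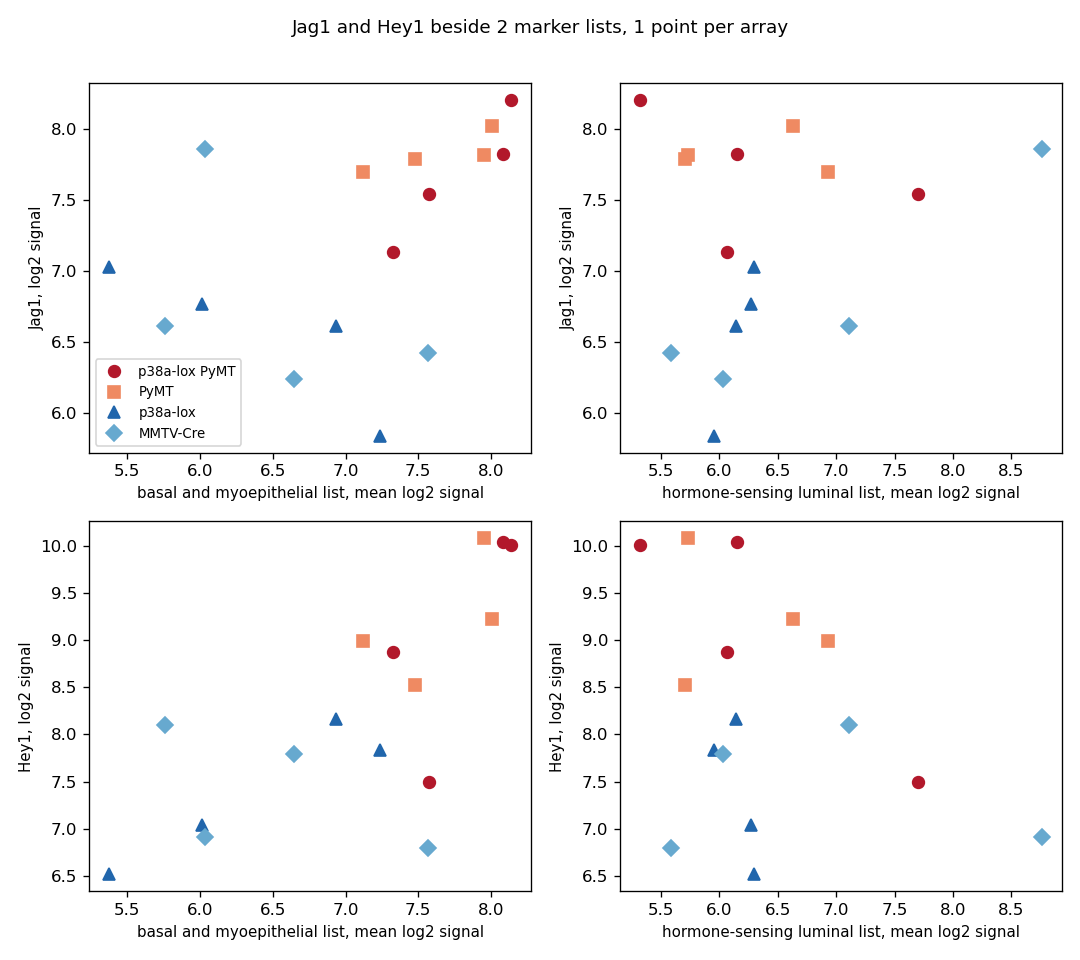
Log2 signal of Jag1 (top) and Hey1 (bottom) against the mean log2 signal of 8 basal markers (left) and 5 hormone-sensing luminal markers (right), 1 point per array, coloured by group. Arrays with PyMT have basal means from 7.12 to 8.14; MMTV-Cre replicate 2 lies far to the right in the hormone-sensing panels, at 8.76.

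The comparisons of arrays with the floxed p38α allele against their controls, within tissue with PyMT and within tissue without it, ask what p38α does to luminal gene expression. For the Notch members neither showed a called difference. By the same rule, 0 of 13 member probe sets were called in p38a-lox PyMT against PyMT and 0 of 13 in p38a-lox against MMTV-Cre, where 0% of all 22996 probe sets were called in each. At an unadjusted p under 0.05, 2 of 13 members were lower and 0 higher in p38a-lox PyMT against PyMT, and 0 of 13 differed in p38a-lox against MMTV-Cre, while 3.69% and 4.71% of all probe sets did. These comparisons also share no arrays with each other, but they share the estimate of spread.

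In tissue with PyMT, the receptors had lower estimates with the floxed allele. The largest was that of the second probe set of Notch1, which read 5.81, 6.17, 5.93 and 5.32 in p38a-lox PyMT arrays, against 6.80, 6.50, 5.94 and 6.50 in PyMT arrays. The second probe set of Notch3 read 4.66, 5.14, 5.21 and 4.92 in p38a-lox PyMT arrays, against 5.73, 5.54, 5.84 and 5.12 in PyMT arrays. In each, the groups overlapped through 1 PyMT array, replicate 3 for Notch1 and replicate 4 for Notch3. The log2 differences were -0.63 ± 0.22 for Notch1 and -0.58 ± 0.24 for Notch3 (± SE; unadjusted p = 0.0137 and 0.0304, limma adjusted p = 0.9995 for both).

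The leading probe sets of the receptors differed by -0.48 ± 0.29 for Notch1, -0.48 ± 0.35 for Notch2, -0.41 ± 0.24 for Notch3 and -0.21 ± 0.17 for Notch4 in p38a-lox PyMT against PyMT. Single PyMT arrays moved these values: without PyMT replicate 3 they were -0.19 for Notch1, -0.26 for Notch3 and -0.06 for Notch4, and without PyMT replicate 2 they were -0.66 for Notch3 and -0.37 for Notch4. Of the 13 tested member probe sets, 11 had negative estimates, with a median of -0.21, beside 56.5% negative and a median of -0.03 over all tested probe sets. The 2 positive ones were both of Rbpj, at 0.19 ± 0.33 and 0.46 ± 0.49. Jag1 differed by -0.15 ± 0.33, Dll1 by -0.11 ± 0.16, Hes1 by -0.09 ± 0.29 and Hey1 by -0.10 ± 0.54. The SE of Hey1 was the largest of the members, so its difference was the least precisely estimated.

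In tissue without PyMT, the estimates of the members ran from -0.46 ± 0.24 for the second probe set of Notch3, with 4.28, 4.91, 4.87 and 5.08 in p38a-lox arrays against 5.20, 5.56, 5.63 and 4.61 in MMTV-Cre arrays, to 0.43 ± 0.49 for the second probe set of Rbpj. Notch1, Notch2 and Notch4 differed by -0.13 ± 0.29, 0.03 ± 0.35 and 0.05 ± 0.17 in their leading probe sets, and Rbpj by 0.39 ± 0.33. Jag1, Hes1 and Hey1 differed by -0.22 ± 0.33, -0.20 ± 0.29 and -0.01 ± 0.54. The limma adjusted p was 0.999 for all 13. With 2 arrays of each group in each range of title numbers, the estimates had opposite signs in the low and the high range for 6 of the 9 leading probe sets (Notch1, Notch2, Notch3, Dll1, Hes1 and Hey1). For Hey1 the estimate was -0.58 among low and 0.55 among high numbers, and for Hes1 it was -0.90 and 0.49.

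**Figure D4:**
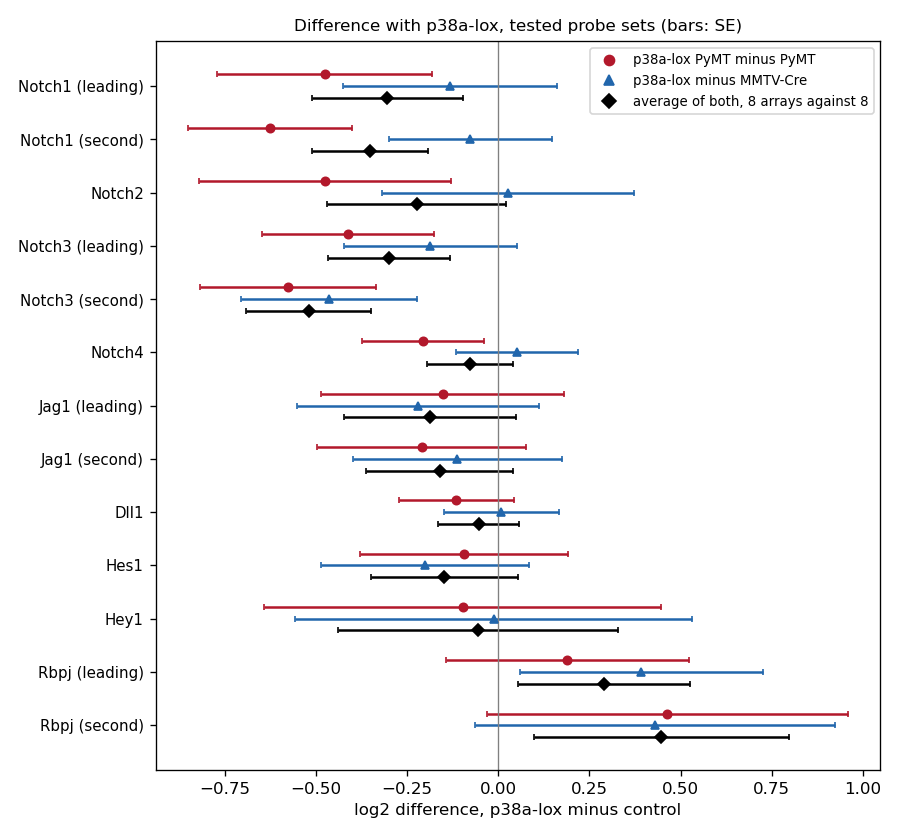
Log2 difference with the floxed p38α allele (horizontal axis) for the 13 tested member probe sets, with PyMT, without PyMT and averaged over both; bars are SE. With PyMT the receptor probe sets lie between -0.63 and -0.21, the Rbpj probe sets lie above 0 in all estimates, and none of these differences was called.

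Averaged over tissue with and without PyMT (a contrast chosen after the data were seen), 0% of all probe sets and 0 of 13 members were called for the floxed allele. The second probe set of Notch3 had the smallest unadjusted p of the members, 0.00819, with 4.88 ± 0.30 with the floxed allele and 5.40 ± 0.40 without (SD, n = 8 each) and a difference of -0.52 ± 0.17 (limma adjusted p = 0.781). Whether the effect of the floxed allele differed between tissue with and without PyMT was tested by the interaction, in which 0% of all probe sets and 0 of 13 members were called. The largest interaction among the members was -0.55 ± 0.32, for the second probe set of Notch1 (limma adjusted p = 0.996). For Hey1 it was -0.09 ± 0.77 and for Jag1 0.07 ± 0.47.

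Other genes of the pathway were read from 6 lists of 53 genes, of which 46 had a single-symbol probe set and 45, with 79 probe sets, were tested. In PyMT against MMTV-Cre 1 probe set was called higher and 1 lower, where 1.06% of all tested probe sets were called. In the other 3 comparisons and the interaction 0 were called. Hes7, a Hes-family target best known from the segmentation clock of the embryo, ranged from 5.57 to 6.46 in PyMT arrays, against 4.89 to 5.12 in MMTV-Cre arrays, with a difference of 0.93 ± 0.19 (limma adjusted p = 0.0332). Snw1, which encodes the nuclear cofactor SKIP that binds the Notch intracellular domain and also works in splicing, ranged from 5.09 to 5.70 in PyMT arrays, against 6.04 to 6.73 in MMTV-Cre arrays, with a difference of -0.98 ± 0.18 (limma adjusted p = 0.0216). The groups did not overlap for either gene, which 4.37% of all tested probe sets showed in the higher and 2.69% in the lower direction.

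Both calls were close to the threshold. With 1 array left out, Hes7 was called in 11 of 16 fits and Snw1 in 12 of 16, with adjusted p up to 0.0987 and 0.0715. Hes7 was not called without MMTV-Cre replicate 1, 3 or 4 or PyMT replicate 1 or 4, and Snw1 was not called without MMTV-Cre replicate 1, 3 or 4 or PyMT replicate 4. In p38a-lox PyMT against p38a-lox the estimates had the same signs, 0.35 ± 0.19 for Hes7 and -0.34 ± 0.18 for Snw1 (limma adjusted p = 0.504 and 0.486). In p38a-lox PyMT against PyMT, which shares the PyMT arrays with the comparison that called them, the differences were -0.61 ± 0.19 for Hes7 and 0.63 ± 0.18 for Snw1, and -0.61 ± 0.20 for Dtx1, a target gene (limma adjusted p = 0.9995 for each). In the interaction these 3 genes also had the smallest p of the lists: -0.58 ± 0.27 for Hes7, 0.63 ± 0.26 for Snw1 and -0.71 ± 0.28 for Dtx1 (limma adjusted p = 0.996 for each).

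In p38a-lox PyMT against p38a-lox, the pathway genes with the smallest p were Ccnd1, Dtx4 and Dtx3l, none of them called. Ccnd1, which encodes cyclin D1, averaged 8.05 ± 0.32 in p38a-lox PyMT and 6.998 ± 0.37 in p38a-lox arrays, a difference of 1.05 ± 0.28 (limma adjusted p = 0.112). Dtx4, which encodes a Deltex ubiquitin ligase, averaged 8.40 ± 0.57 in p38a-lox PyMT and 10.01 ± 0.17 in p38a-lox arrays, a difference of -1.61 ± 0.43 (limma adjusted p = 0.113). Dtx3l, of the same family, differed by -1.42 ± 0.55 (limma adjusted p = 0.290). In PyMT against MMTV-Cre the same Ccnd1 and Dtx4 probe sets differed by 1.17 ± 0.28 and -1.22 ± 0.43 (limma adjusted p = 0.0610 and 0.201).

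In the average over both p38α genotypes, 3 of 79 probe sets were called higher and 3 lower, beside 6% of all probe sets in either direction and 3.54% higher. These counts are near the background and are no result about the pathway as a whole. The higher ones were of Ccnd1 (1.11 ± 0.20, limma adjusted p = 0.00553), Hes7 (0.64 ± 0.14, limma adjusted p = 0.0142) and Aph1a, a gamma-secretase subunit (0.42 ± 0.10, limma adjusted p = 0.0283). The lower ones were Snw1 (-0.66 ± 0.13, limma adjusted p = 0.00893) and the 2 probe sets of Dtx4 (-1.42 ± 0.31 and -1.04 ± 0.22, limma adjusted p = 0.0151 for each). The other 2 probe sets of Ccnd1 differed by 0.71 ± 0.29 and 0.38 ± 0.21, and those of Aph1a by 0.68 ± 0.28 and 0.46 ± 0.21; none of these was called.

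In p38a-lox against MMTV-Cre the pathway genes with the smallest p were Ccnd1 (0.78 ± 0.28), Numb, an endocytic antagonist of Notch (-0.67 ± 0.25), and Hes5, a target gene (-0.31 ± 0.11), with limma adjusted p of 0.953, 0.965 and 0.967. The median difference over the 79 pathway probe sets was near 0 in each comparison: -0.00256 in p38a-lox PyMT against p38a-lox, 0.05 in PyMT against MMTV-Cre, -0.08 in p38a-lox PyMT against PyMT and -0.02 in p38a-lox against MMTV-Cre. The list of trafficking and ubiquitylation genes had the lowest medians with PyMT, -0.24 and -0.20 over 24 probe sets, and the gamma-secretase and protease list had 0.30 and 0.13 over 17.

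**Figure D5:**
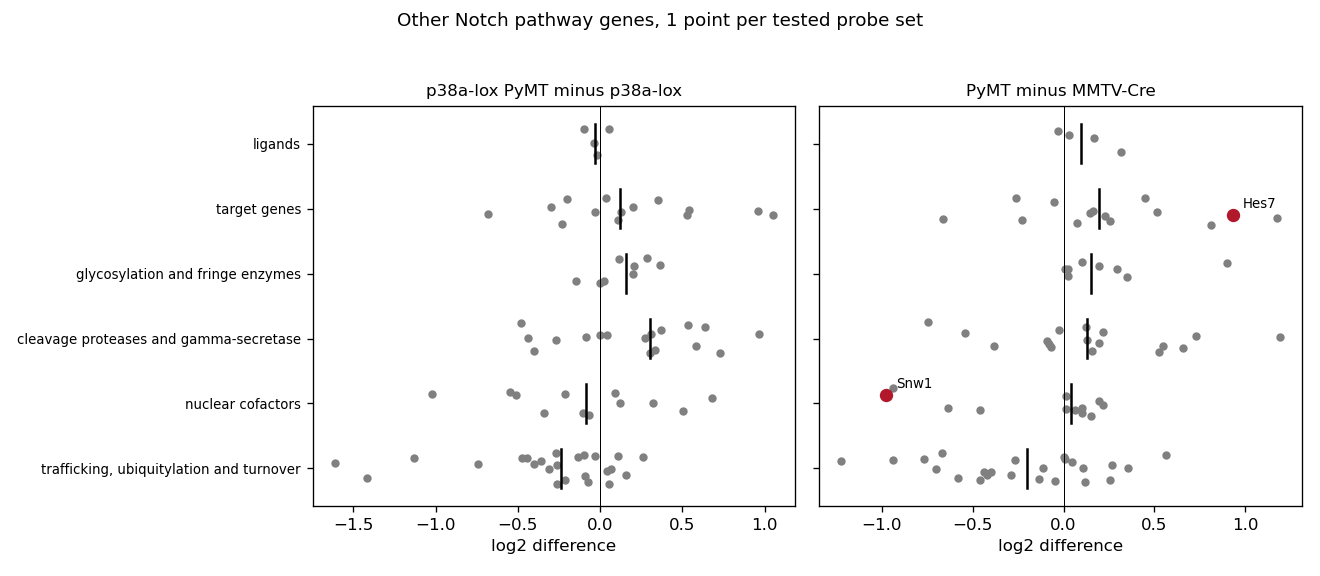
Log2 difference with PyMT (horizontal axis) for the 79 tested probe sets of 45 other Notch pathway genes, by list; lines mark list medians and red points the called probe sets. Hes7 (0.93) and Snw1 (-0.98) are the called ones, both in PyMT against MMTV-Cre.

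The genes whose profile over the 16 arrays was most like that of a member are given for the 4 members with the largest SD over the arrays, with Pearson's r among 14410 genes and the r left after group means were subtracted. For Hey1 they were Car5b (0.935, and 0.859 within groups), Homer2 (0.924 and 0.841) and Shf (0.918 and 0.813). For Jag1 they were Arf6 (0.915 and 0.782), Fam102a (0.913 and 0.845) and Zbtb4 (0.909 and 0.825). For Rbpj they were Tbc1d1 (0.828 and 0.854), Prkab2 (0.825 and 0.756) and Ajuba (0.825 and 0.789). For Notch2 they were Flnc (0.936 and 0.941), Gm19325 (0.904 and 0.898) and Acer1 (0.893 and 0.905). All points share the same arrays and normalization, and the values are descriptions.

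Although Hey1 and Jag1 were both higher with PyMT, they did not vary together within groups: with group means subtracted, r was -0.0781 over the 16 arrays. Among the 36 pairs of leading member probe sets, the values farthest from 0 were those of Hey1 with Rbpj (-0.756) and of Hey1 with Notch1 (0.728). The second probe sets of Rbpj and Notch1, which disagreed with the leading ones above, were not included. These values therefore describe the leading probe sets and not the genes. Jag1 had 0.514 with Notch2 and 0.508 with Dll1, and Hes1 had 0.0271 with Hey1.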

How the data were processed

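RNA of sorted luminal mammary cells was measured on 16 Affymetrix mouse perfect-match arrays. The authors deposited RMA signals on the log2 scale, according to the submitters' processing notes, which give neither version nor settings. RMA includes background correction and quantile normalization, which removes any difference in total RNA between groups. Arrays give no read depth, and their number, 4 per group, limits the precision.

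Gene names came from the platform annotation, which listed 29449 probe sets, 28898 with 1 symbol and 551 with several, which were left out; the other 15692 have no name here. By Entrez ID, 28689 of the single-symbol probe sets matched RefSeq (GRCm38.p6). Probe sets with a mean of at least 3.67, the 25th percentile, were tested. A model with 1 mean per group was fitted with limma 3.58.1 (lmFit and eBayes, R 4.3.3, 12 residual and 2.81 prior degrees of freedom), with two-sided contrasts and Benjamini-Hochberg adjustment over 22996 probe sets. The procedure was tested on simulated data. Errors are SD for group means and SE for differences.

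All members were named; of the other pathway lists, called genes and otherwise the 3 with the smallest p per contrast, and Ccnd1, Dtx4 and Aph1a in the averaged contrast because they were called there. The members and lists were chosen with earlier results of these data known. Promoters were searched for TGGGAA on both strands. The alternatives were other filters, 1 probe set or the mean of all probe sets per gene, trend and robust moderation, a second quantile normalization, array centring, arrayWeights, only the arrays compared, title number range as a covariate, and each array left out. Chosen after seeing the data were the averaged contrasts and a fit without the 2 arrays of lowest correlation.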

Additional observations from a re-analysis of the deposited data

Results flagged for a closer look

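In 4 of the 60 sets of 4 arrays examined (15 member probe sets in 4 groups), 1 array stood apart from the other 3 by more than Dixon's critical value for 4 samples allows; chance gives about 1 such set in 20. The second probe set of Jag1 read 4.93 in MMTV-Cre replicate 2, against 3.82 to 3.90 in the other MMTV-Cre arrays (gap over range 0.924); this array also had the highest Jag1 signal in the leading probe set. The leading probe set of Rbpj read 6.33 in MMTV-Cre replicate 3, against 7.25 to 7.41 (0.851). Dll1 read 5.03 in MMTV-Cre replicate 3, against 4.85 to 4.88 (0.865). The tested probe set of Notch4 read 3.85 in p38a-lox replicate 3, against 3.59 to 3.63 (0.835). No member passed the test of the interaction between the floxed allele and PyMT.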

How the results depend on the processing

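No paired analysis was possible because the replicate numbers were given in accession order and pair no samples. Limits are the 4 arrays per group, the age difference between groups with and without PyMT, and probe sets of Notch1, Notch3 and Rbpj that disagree. With arrayWeights (weights from 0.219 to 4.19, lowest for p38a-lox replicate 2), 4 member probe sets were called in p38a-lox PyMT against p38a-lox (of Jag1, Notch1 and Rbpj) and 3 in PyMT against MMTV-Cre (of Hey1 and Jag1), in place of 0 in each. Over all probe sets it called 2167 in place of 141, 1916 in place of 243, and 9 in place of 0 in both p38a-lox comparisons. Fits of only the arrays compared called 214 and 69. The averaged PyMT contrast called 3 members and 1380 probe sets. Without the 2 arrays of lowest correlation, 1 probe set was called in p38a-lox against MMTV-Cre. With each array left out in turn, members called ran from 0 to 1 in p38a-lox PyMT against p38a-lox and from 0 to 2 in PyMT against MMTV-Cre. All probe sets called ran from 27 to 297 and from 70 to 619, lowest without p38a-lox PyMT replicate 2 and PyMT replicate 1, from 0 to 2 in p38a-lox PyMT against PyMT, and from 0 to 1 in p38a-lox against MMTV-Cre and in the interaction.

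The differences of Hey1 and Jag1 with PyMT kept their sign in all alternatives: Hey1 ran from 1.32 to 2.25 (adjusted p from 0.0377 to 0.466) and Jag1 from 0.87 to 1.30 (0.0136 to 0.392) in p38a-lox PyMT against p38a-lox, and Hey1 from 1.51 to 2.03 (0.0392 to 0.306) and Jag1 from 0.87 to 1.41 (0.0208 to 0.343) in PyMT against MMTV-Cre. In the averaged contrast, both genes were called under 9 of 9 other settings. Rbpj and Notch1, in their leading probe sets, were called in it under 1 of 9, arrayWeights, with adjusted p of 0.0259 and 0.0417. Over the leading probe sets of all 9 genes, signs were least stable in p38a-lox against MMTV-Cre, where 29 of 241 values changed sign. In p38a-lox PyMT against PyMT 5 of 241 did, as many as in each of the 2 comparisons with PyMT. The causes were not tested.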
